A study of Mus musculus with 8 samples.

Results

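The 35 genes described here encode transporters and enzymes of glycolysis and lactate formation, of mitochondrial pyruvate dehydrogenase, and of the pentose phosphate pathway. They were chosen by name. A gene of the count table belonged to the set when its Ensembl identifier mapped, in the GENCODE M21 mouse annotation, to one of the listed symbols. The set held 35 of the 49315 genes counted, and all 35 were among the 13051 genes with enough counts to be tested.

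RNA-Seq was performed on bone marrow-derived macrophages (BMDMs), primary macrophages grown from the marrow of C57BL/6 mice in medium with M-CSF, the macrophage growth factor, at 10 ng/ml. Every culture was transfected with 25 nM of a gapmeR, an antisense oligonucleotide whose pairing with an RNA leads RNase H to cut it, using Lipofectamine 3000. The 4 MAARS gapmeR libraries (replicates 9, 11, 13 and 15) received gapmeRs against the macrophage long non-coding RNA MAARS, and the 4 control gapmeR libraries (replicates 2, 5, 6 and 7) received a negative control oligonucleotide. The comparison asked which genes and pathways changed after MAARS knockdown. The labels name no stimulus, and the age of the mice is not given in the sources used here. Nothing in the labels ties the libraries to separate animals or cultures, so p-values measure the spread between these samples, which may be technical. Because RNA was taken from whole cultures, fewer cells of a type and less RNA per cell cannot be told apart.

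Glycolysis turns glucose into pyruvate in the cytosol. Hexokinase traps glucose as glucose phosphate, phosphofructokinase commits it to the pathway, and the PFKFB enzymes set the level of the sugar bisphosphate that drives phosphofructokinase. Pyruvate is reduced to lactate by lactate dehydrogenase or, inside the mitochondrion, is used by pyruvate dehydrogenase, which the PDK kinases hold back. The pentose phosphate pathway makes NADPH and ribose from glucose phosphate. Macrophages are known for raising glycolysis when they are activated, and hypoxia-inducible factor 1 (HIF-1) is a textbook activator of many of these genes.

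The 4 members with the largest decreases were Pfkfb3, Hk2, Ldha and Slc16a3. The 250 bases before a RefSeq start site of each (build GRCm38.p6) are printed 5′ to 3′. For each gene the window with the most matches to ACGTG, the core letters of a HIF-1 site, was picked, and all 4 held it. Across tested genes with a window, 25.0% held ACGTG, and 24.6% of those lower did. Capitals mark ACGTG on either strand, which reads CACGT on the other strand, and overlapping matches are marked as 1 run.
Ldha: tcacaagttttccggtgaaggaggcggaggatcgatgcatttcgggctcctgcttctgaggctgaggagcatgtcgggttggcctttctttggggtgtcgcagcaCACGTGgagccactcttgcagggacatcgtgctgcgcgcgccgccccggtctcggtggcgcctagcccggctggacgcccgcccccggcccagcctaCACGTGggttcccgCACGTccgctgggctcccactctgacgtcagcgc
Hk2: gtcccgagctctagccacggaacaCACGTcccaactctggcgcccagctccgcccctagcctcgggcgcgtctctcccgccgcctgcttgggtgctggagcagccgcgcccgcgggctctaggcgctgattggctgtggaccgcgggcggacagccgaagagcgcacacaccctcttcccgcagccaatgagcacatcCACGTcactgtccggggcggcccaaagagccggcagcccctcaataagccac
Pfkfb3: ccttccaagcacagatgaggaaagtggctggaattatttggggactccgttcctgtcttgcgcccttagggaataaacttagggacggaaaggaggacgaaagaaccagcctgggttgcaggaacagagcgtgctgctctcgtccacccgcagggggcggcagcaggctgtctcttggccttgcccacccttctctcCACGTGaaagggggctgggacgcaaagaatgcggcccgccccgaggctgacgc
Slc16a3: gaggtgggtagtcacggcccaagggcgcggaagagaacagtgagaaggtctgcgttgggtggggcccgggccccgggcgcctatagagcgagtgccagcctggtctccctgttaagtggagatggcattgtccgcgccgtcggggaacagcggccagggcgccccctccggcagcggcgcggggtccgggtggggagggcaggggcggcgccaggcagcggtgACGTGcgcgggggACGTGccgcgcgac
The Ldha window (chr7:46845554-46845803, plus strand) held 3 separate sites, the Hk2 window (chr6:82774455-82774704, minus strand) held 2, the Pfkfb3 window (chr2:11502091-11502340, minus strand) held 1 and the Slc16a3 window (chr11:120948817-120949066, plus strand) held 2. In GENCODE M21 the Hk2 window lay outside any gene, and the other 3 lay within the span of their own gene, with 0 exonic bases for Ldha, 11 for Pfkfb3 and 14 for Slc16a3. Ldha and Pfkfb3 have 2 RefSeq windows each. The other Ldha window held 0 sites and the other Pfkfb3 window held 1.

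Control libraries held 19287279 to 20567123 counts and MAARS gapmeR libraries 20839671 to 24541205, so every MAARS gapmeR library was deeper. MAARS, listed as Gm14461 (ENSMUSG00000054510, chr2:78237547-78302230, build GRCm38, plus strand), had 238, 296, 240 and 249 counts in the control libraries and 163, 161, 159 and 135 in the MAARS gapmeR libraries. It fell from 13.1 ± 1.36 to 6.82 ± 0.844 CPM (counts scaled to a common library size with TMM factors; SD, n = 4), a log2 fold change of -0.95 (SE 0.11; edgeR's quasi-likelihood test, Benjamini-Hochberg adjusted p = 5.8e-05). All 10 macrophage markers were above the count filter, 5 higher and 4 lower, with a summed CPM of 17979 to 21701 in controls and 20712 to 23707 after knockdown. Of the other markers, 10 neutrophil genes summed to 102 to 301 CPM against 106 to 169. Of the 8 tested 0 were called, and all 8 had a log2 fold change below 0 (median -0.48). The 10 stromal genes summed to 524 to 1173 CPM against 839 to 1449. Of the 9 tested 8 were above 0 (median 0.37) and 1 below, with only Acta2 called, higher. Erythroid genes summed to 2.31 to 3.11 CPM against 5.29 to 6.81 and lymphoid and dendritic genes to 1.18 to 2.49 against 1.28 to 1.55. The part of these shifts in the values of the 35 genes was not tested.

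The 35 genes moved in both directions after MAARS knockdown and were called at a rate close to that of all genes. At an adjusted p under 0.05 (edgeR's quasi-likelihood test, Benjamini-Hochberg adjustment over all 13051 genes), 8 members were higher, 8 were lower and 19 did not pass. The 16 members called were 45.7% of the set, beside 45.4% of all genes tested, which had 21.3% higher and 24.0% lower. Pfkfb3, Hk2, Ldha, Slc16a3, Hk3, Rpia, Tpi1 and Pkm fell, and Pfkm, Pdk1, Ldhb, Pfkl, Pgd, G6pdx, Gpi1 and Taldo1 rose. Log2 fold changes ran from -0.77 to 0.50, with a median of -0.02 for the members and 0.01 for all genes. The median absolute change was 0.16 for the members and 0.23 for all genes. Changes of at least 0.5 on the log2 scale that passed the test were seen in 3 members, Pfkfb3, Hk2 and Ldha, all lower, which is 8.57% of the set beside 16.8% of all genes. At an adjusted p under 0.01, 7 members were higher and 6 lower, beside 30.3% of all genes called in either direction.

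**Figure D1:**
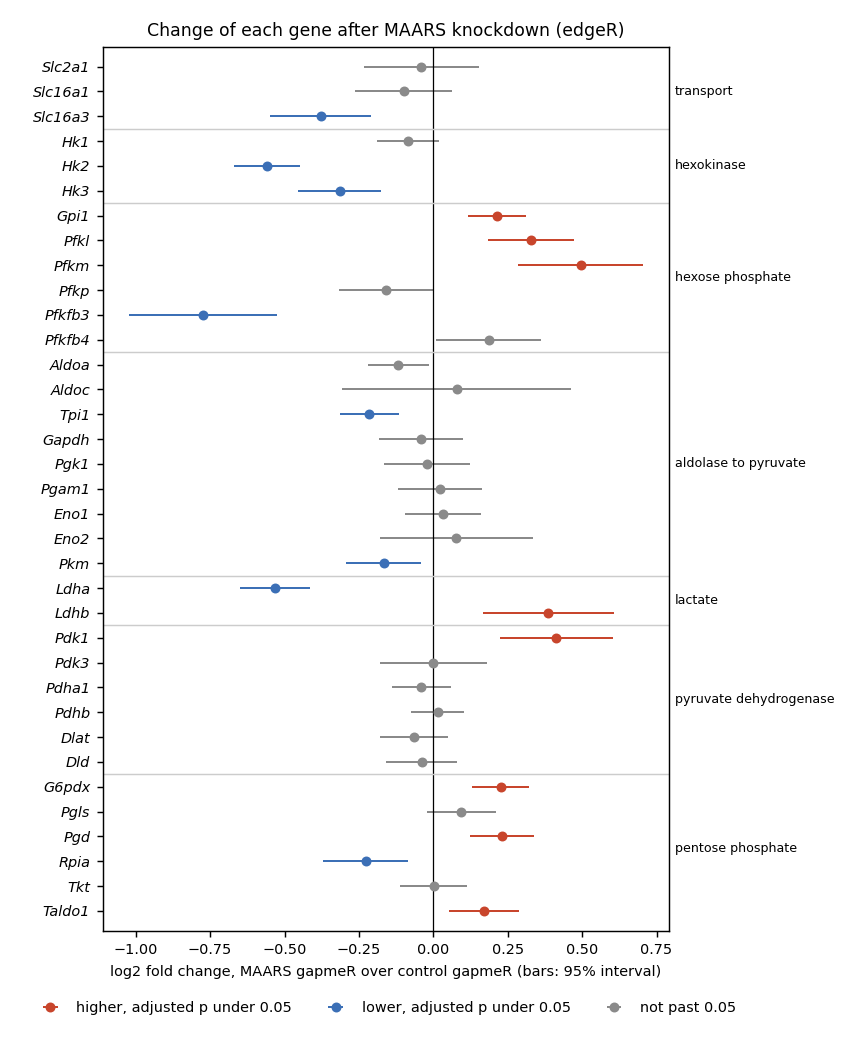
Log2 fold change of each gene, MAARS gapmeR over control gapmeR (x axis), for the 35 genes grouped by role (y axis), with points for the edgeR estimate and bars for its 95% interval. The estimates run from -0.77 for Pfkfb3 to 0.50 for Pfkm, with 8 genes higher (red), 8 lower (blue) and 19 not past an adjusted p of 0.05 (grey).

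Transcripts of the members made up 0.807% ± 0.0384 of all counts in control libraries and 0.792% ± 0.0312 in MAARS gapmeR libraries (SD, n = 4), and the groups overlapped, with 0.772% to 0.862% and 0.753% to 0.828% per library. Within a group the members varied little, with a median coefficient of variation of 6.47% in controls and 5.06% after knockdown. Libraries were not alike in this respect. Control replicate 2 was the highest control library for 14 of the 35 genes and the lowest for 1, and MAARS gapmeR replicate 11 was the highest of its group for 16 and the lowest for 3. The CPM ranges of the groups did not overlap for 15 members, 42.9% of them, beside 42.1% of all genes tested.

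**Figure D2:**
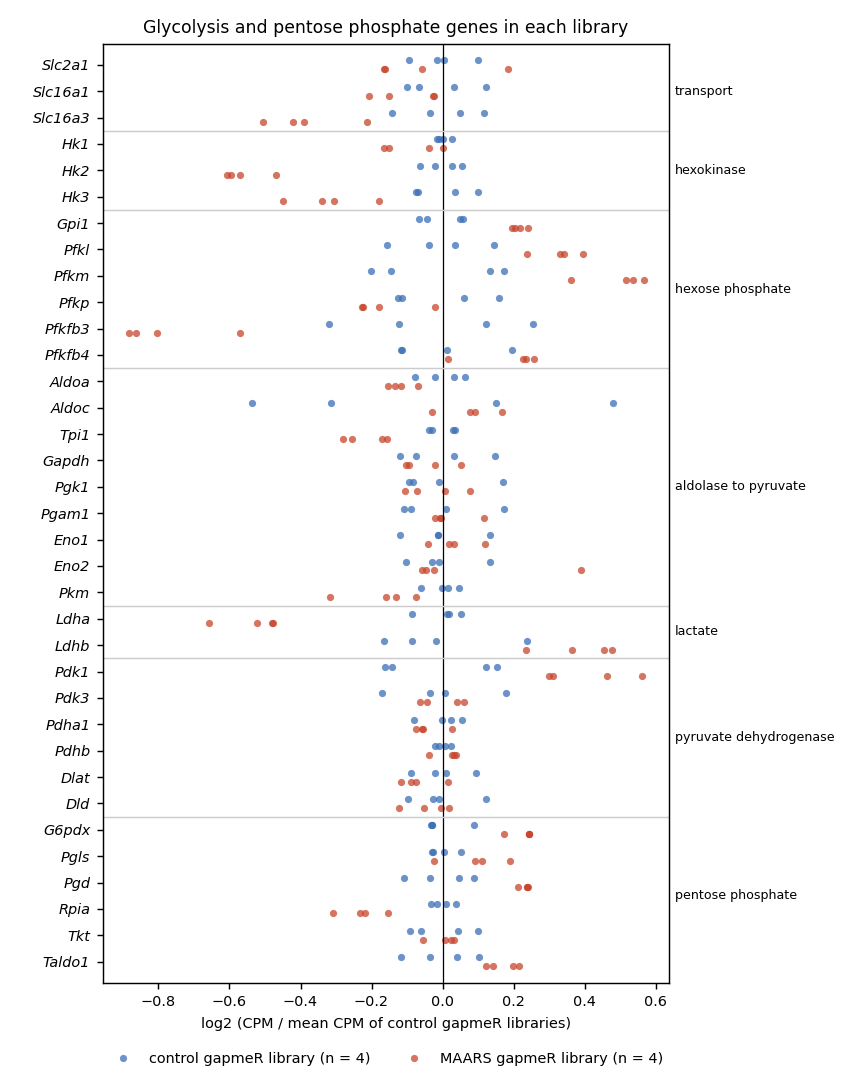
Each point is 1 library, placed by the log2 ratio of its CPM to the mean CPM of the 4 control libraries (x axis), for the 35 genes grouped by role (y axis). The MAARS gapmeR points (red) of Pfkfb3, Hk2 and Ldha lie wholly to the left of the control points (blue), and those of Gapdh, Pgk1, Pgam1 and Eno1 lie among them.

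Levels between genes were compared per kilobase of exon, since longer transcripts collect more reads. The length was that of all annotated exons of a gene merged, which can exceed its longest transcript (6675 against 3730 bases for Pfkl). Ranks and shares between genes depend on this choice, and no other length was tested. Pkm had the highest mean of the members, at 282.5 ± 8.66 CPM per kb in controls and 251.6 ± 17.7 after knockdown (SD, n = 4), rank 120 of 13031 genes over all libraries. Aldoa (rank 130) was at 270.0 ± 11.5 and 248.8 ± 6.37 CPM per kb, and its SDs overlapped those of Pkm in both groups. Gapdh (rank 198), Ldha (204), Taldo1 (237), Pgk1 (255) and Hk3 (322) followed. Ldha and Gapdh were at 223.7 ± 9.17 and 198.5 ± 16.6 CPM per kb in controls, with overlapping SDs, and at 154.7 ± 8.91 and 193.0 ± 9.78 after knockdown, with SDs that did not overlap. Eno2 was the least abundant member, at 1.98 ± 0.138 and 2.09 ± 0.337 CPM per kb. Slc2a1, Slc16a1 and Slc16a3 lay between 4.20 and 5.86 CPM per kb in group means, and the SDs of Slc2a1 and Slc16a3 overlapped in controls (5.30 ± 0.297 and 5.86 ± 0.449).

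**Figure D3:**
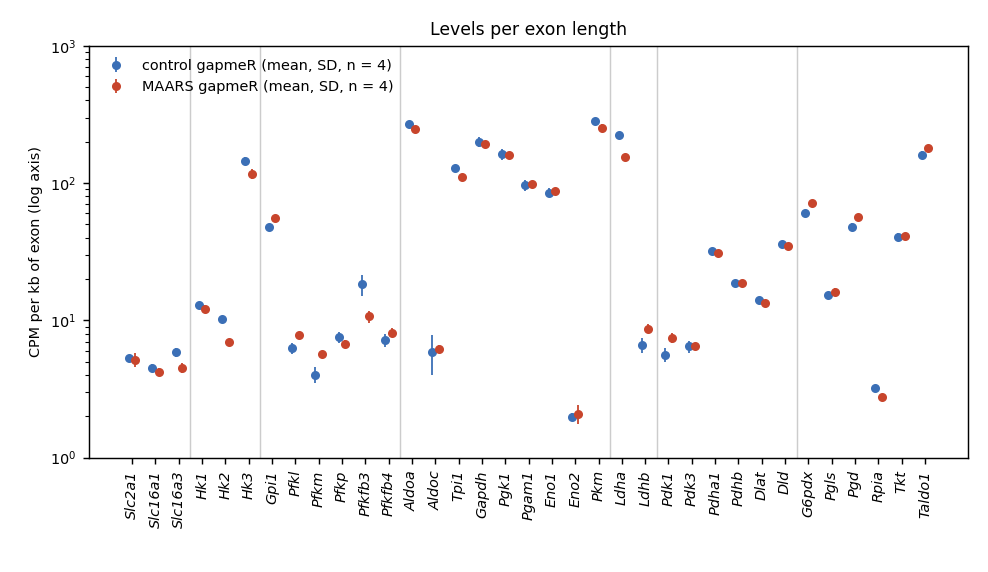
Mean CPM per kilobase of exon (y axis, log scale) with SD bars over 4 libraries for each of the 35 genes (x axis, in pathway order). The levels span from 1.98 for Eno2 to 282.5 for Pkm in control libraries.

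At the cell membrane, the glucose transporter Slc2a1 did not pass the test, and the lactate exporter Slc16a3 fell. Slc2a1 (ENSMUSG00000028645, chr4:119108711-119137983, plus strand) was measured at 18.6, 18.4, 17.4 and 19.9 CPM in control replicates 2, 5, 6 and 7, and at 16.6, 21.1, 16.6 and 17.9 CPM in MAARS gapmeR replicates 9, 11, 13 and 15. MAARS gapmeR replicate 11 was above every control and the groups overlapped. The log2 fold change was -0.04 (95% interval -0.23 to 0.15; edgeR's quasi-likelihood test, adjusted p = 0.73). Slc16a3 (MCT4) fell from 28.2 to 33.8 CPM in controls to 21.9 to 26.9 CPM, with no overlap, a log2 fold change of -0.38 (SE 0.077; edgeR adjusted p = 0.0021). The other lactate transporter of the set, Slc16a1 (MCT1), was at 19.9 ± 1.41 and 18.6 ± 1.17 CPM (SD, n = 4) and did not pass (edgeR adjusted p = 0.30). Slc16a7, a monocarboxylate transporter gene outside the set, rose from 40.0 ± 3.12 to 46.6 ± 3.30 CPM (log2 fold change 0.22, SE 0.069; edgeR adjusted p = 0.022).

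Hexokinases phosphorylate glucose, and 2 of the 3 members fell, beside 24.0% of all genes tested. Hk2 (ENSMUSG00000000628, chr6:82725025-82774454, minus strand), the inducible form bound to mitochondria, was at 60.1, 58.3, 62.0 and 63.3 CPM in controls and at 40.3, 44.0, 40.0 and 41.0 CPM after knockdown. The lowest control lay above the highest MAARS gapmeR library. Its log2 fold change was -0.56 (SE 0.051; edgeR adjusted p = 1.1e-05), and the level fell by 32.1%. Hk3, a hexokinase of myeloid cells and here the most abundant one, fell from 508.2 to 573.5 CPM in controls to 391.9 to 472.8 CPM, without overlap (log2 fold change -0.31, SE 0.063; edgeR adjusted p = 0.0020). Hk1, the housekeeping form, had a log2 fold change of -0.09 with a 95% interval of -0.19 to 0.02 (edgeR adjusted p = 0.16). Per kilobase of exon, Hk3 supplied 86.2% ± 0.804 of hexokinase transcripts in controls and 85.9% ± 0.506 after knockdown, Hk1 7.70% ± 0.324 and 8.98% ± 0.339, and Hk2 6.08% ± 0.484 and 5.11% ± 0.204 (SD, n = 4).

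In the hexose phosphate steps 3 of 6 genes rose and 1 fell, beside 21.3% and 24.0% of all genes tested. Pfkfb3 (ENSMUSG00000026773, chr2:11471433-11554077, minus strand), whose enzyme makes the activator of phosphofructokinase, showed the largest change of all members. It was measured at 126.7, 110.4, 150.0 and 164.6 CPM in controls and at 74.7, 75.9, 78.99 and 92.9 CPM in MAARS gapmeR libraries. Control values were widely spread, and the lowest of them was still above the highest MAARS gapmeR value. The log2 fold change was -0.77 (SE 0.11; edgeR adjusted p = 2.6e-04), and the level fell by 41.5%. Its relative Pfkfb4 was at 34.9 ± 3.64 and 39.7 ± 2.98 CPM and did not pass (log2 fold change 0.19, 95% interval 0.01 to 0.36; edgeR adjusted p = 0.079), although it passed without control replicate 5 (0.019) or without MAARS gapmeR replicate 11 (0.033).

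Gpi1, which interconverts glucose and fructose phosphates, rose from 310.5 ± 13.6 to 360.3 ± 5.08 CPM (log2 fold change 0.21, SE 0.044; edgeR adjusted p = 0.0023). Of the phosphofructokinase subunits, Pfkl (liver type) rose from 41.7 ± 3.65 to 52.4 ± 2.37 CPM (0.33, SE 0.066; adjusted p = 0.0020) and Pfkm (muscle type) from 13.4 ± 1.76 to 18.9 ± 1.17 CPM (0.50, SE 0.096; adjusted p = 0.0016). Groups did not overlap for any of these 3 genes. Pfkp (platelet type) had a log2 fold change of -0.16 with a 95% interval of -0.32 to 0.00 and an edgeR adjusted p of 0.091, which was 0.048 without control replicate 6 and 0.042 without MAARS gapmeR replicate 11.

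Among the steps from aldolase to pyruvate kinase, the called changes were small. Of the 9 genes 0 rose, 2 fell (22.2%) and 7 did not pass, beside 21.3% higher and 24.0% lower of all genes tested. Gapdh (ENSMUSG00000057666, chr6:125161715-125166467, minus strand), the glyceraldehyde phosphate dehydrogenase, was at 908.9, 838.7, 779.7 and 755.0 CPM in controls and at 764.1, 850.2, 768.0 and 809.0 CPM after knockdown. Control replicate 2 was the highest library and control replicate 7 the lowest, so the MAARS gapmeR values lay inside the control range. The log2 fold change was -0.04 (95% interval -0.18 to 0.10; edgeR adjusted p = 0.63). The next steps of the trunk were alike in this: for Gapdh, Pgk1, Pgam1 and Eno1 together the intervals lay between -0.18 and 0.16, that is between a fall by 11.8% and a rise by 11.9%, and the groups overlapped for all 4.

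Pkm (ENSMUSG00000032294, chr9:59656368-59679375, plus strand), which makes pyruvate, was at 1458, 1355, 1427 and 1411 CPM in controls and at 1134, 1342, 1290 and 1266 CPM in MAARS gapmeR libraries. The highest MAARS gapmeR library lay just under the lowest control. Its log2 fold change of -0.17 (SE 0.058; edgeR adjusted p = 0.034) was past the threshold by little. The adjusted p rose to 0.078, 0.062 or 0.055 without control replicate 2, 6 or 7, and to 0.079 or 0.067 without MAARS gapmeR replicate 9 or 15. Library totals in place of TMM factors gave -0.10 (adjusted p = 0.18). Tpi1, which interconverts the triose phosphates, fell from 342.2 to 360.4 CPM in controls to 289.6 to 315.1 CPM (log2 fold change -0.21, SE 0.045; edgeR adjusted p = 0.0027).

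Aldoa, the main aldolase, had a log2 fold change of -0.12 (95% interval -0.22 to -0.02) that did not pass with edgeR (adjusted p = 0.060), passed with limma-voom (0.048) and DESeq2 (0.034), and was at 0.033 with edgeR without control replicate 7. Aldoc and Eno2, the forms typical of brain, were at 19.2 ± 6.10 and 9.34 ± 0.652 CPM in controls and at 20.3 ± 1.12 and 9.85 ± 1.59 CPM after knockdown. Aldoc had the widest spread of all members in controls, from 13.3 to 26.8 CPM. Neither passed the test (edgeR adjusted p = 0.74 and 0.61).

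The lactate dehydrogenase genes moved in opposite directions. Ldha (ENSMUSG00000063229, chr7:46841475-46855627, plus strand), which encodes the subunit that favours lactate formation, was at 747.2, 697.1, 750.3 and 767.8 CPM in controls and at 469.1, 530.9, 515.9 and 531.9 CPM in MAARS gapmeR libraries. Every MAARS gapmeR library lay far under every control. The log2 fold change was -0.53 (SE 0.054; edgeR adjusted p = 1.9e-05), and the level fell by 30.9%. Ldhb, the subunit typical of heart, rose from 9.30 to 12.3 CPM in controls to 12.3 to 14.5 CPM (log2 fold change 0.39, SE 0.10; edgeR adjusted p = 0.0089), and the ranges touched, since control replicate 2 (12.29) stood just above MAARS gapmeR replicate 13 (12.27). Per kilobase of exon, the share of Ldhb in lactate dehydrogenase transcripts went from 2.89% ± 0.372 to 5.32% ± 0.389 (SD, n = 4).

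At the pyruvate dehydrogenase step, the kinase Pdk1 rose from 39.0 to 48.7 CPM in controls to 53.9 to 64.5 CPM, without overlap (log2 fold change 0.41, SE 0.087; edgeR adjusted p = 0.0026). Pdk3, another kinase of the complex, was at 16.6 ± 1.67 and 16.6 ± 0.706 CPM. The subunit genes Pdha1, Pdhb, Dlat and Dld did not pass the test, and their 95% intervals lay between -0.18 and 0.10 on the log2 scale. Values of the control and MAARS gapmeR libraries overlapped for all 4 genes.

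In the pentose phosphate pathway 3 of 6 genes rose and 1 fell, beside 21.3% and 24.0% of all genes tested. G6pdx (ENSMUSG00000031400, chrX:74409483-74429194, minus strand), the first and rate-limiting enzyme and a source of NADPH, was at 183.5, 199.3, 183.3 and 183.6 CPM in controls and at 221.7, 221.8, 221.9 and 211.5 CPM after knockdown. Both groups were tight apart from 1 library each, and they did not overlap. The log2 fold change was 0.23 (SE 0.044; edgeR adjusted p = 0.0016), a rise of 17.0%. Pgd, the other NADPH-forming dehydrogenase, rose from 309.9 ± 18.9 to 364.1 ± 3.29 CPM (0.23, SE 0.049; edgeR adjusted p = 0.0027). Pgls, the lactonase between them, was at 57.2 ± 1.52 and 61.1 ± 3.72 CPM and did not pass (edgeR adjusted p = 0.17).

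Of the non-oxidative branch, Tkt (ENSMUSG00000021957, chr14:30548359-30574720, plus strand), the transketolase, was at 309.4, 321.6, 287.3 and 281.3 CPM in controls and at 301.3, 305.0, 288.5 and 306.6 CPM in MAARS gapmeR libraries. All MAARS gapmeR values lay inside the control range. Its log2 fold change was 0.00 (95% interval -0.11 to 0.11; edgeR adjusted p = 0.98). Taldo1, the transaldolase, rose from 349.8 ± 22.7 to 393.5 ± 12.3 CPM (0.17, SE 0.053; edgeR adjusted p = 0.022), and the adjusted p was 0.062, 0.061, 0.055 or 0.059 without control replicate 6 or 7 or MAARS gapmeR replicate 9 or 15. Rpia, the ribose phosphate isomerase, fell from 17.3 ± 0.378 to 14.8 ± 0.653 CPM (-0.23, SE 0.065; edgeR adjusted p = 0.015), a call lost with upper-quartile factors (0.058) or library totals (0.070).

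None of the 19 members without a call had a 95% interval reaching beyond 0.5 on the log2 scale. The lowest bound among them was -0.32 (Pfkp) and the highest 0.46 (Aldoc), so changes larger than a fall by 19.8% or a rise by 37.9% lay outside these intervals.

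Ratios between isozyme genes within a library do not depend on the scaling of that library. For 10 pairs of members matched by enzyme, the log2 ratio of counts (0.5 added to each) was compared between the groups. The members had been chosen with earlier results of these data known, and some pairs share a gene. A two-sided exact permutation test over the 8 libraries was used, whose smallest possible p is 0.0286 with 4 against 4. Of the 10 pairs 6 reached it, with an adjusted p of 0.048 over the 10 pairs. Without control replicate 6, or without any 1 of the MAARS gapmeR replicates 9, 11, 13 and 15, the exact permutation adjusted p of the 6 pairs was 0.057 to 0.095. With all 8 libraries as with 7, the adjusted p can pass only when at least 6 pairs reach the smallest p. Each of the 6 calls therefore depends on the other pairs. In the fits with losses, Pfkp/Pfkl, Pfkfb4/Pfkfb3 or Pdk3/Pdk1 went to an exact permutation p of 0.057. Hk2/Hk1, Hk3/Hk1 and Ldhb/Ldha kept the smallest p in those fits, and the shift of Hk2/Hk1 stayed between -0.49 and -0.45. The largest shifts were in Pfkfb4/Pfkfb3, up by 0.95 from -1.97 ± 0.371 to -1.02 ± 0.146, and in Ldhb/Ldha, up by 0.92 from -6.15 ± 0.189 to -5.23 ± 0.114 (SD, n = 4). Pfkp/Pfkl went down by 0.49, Hk2/Hk1 by 0.47, Pdk3/Pdk1 by 0.41 and Hk3/Hk1 by 0.23. Slc16a3/Slc16a1 went down by 0.28 with overlapping groups (exact permutation p = 0.11), and Pfkm/Pfkl (0.17), Aldoc/Aldoa (0.25) and Eno2/Eno1 (0.03) did not pass either.

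**Figure D4:**
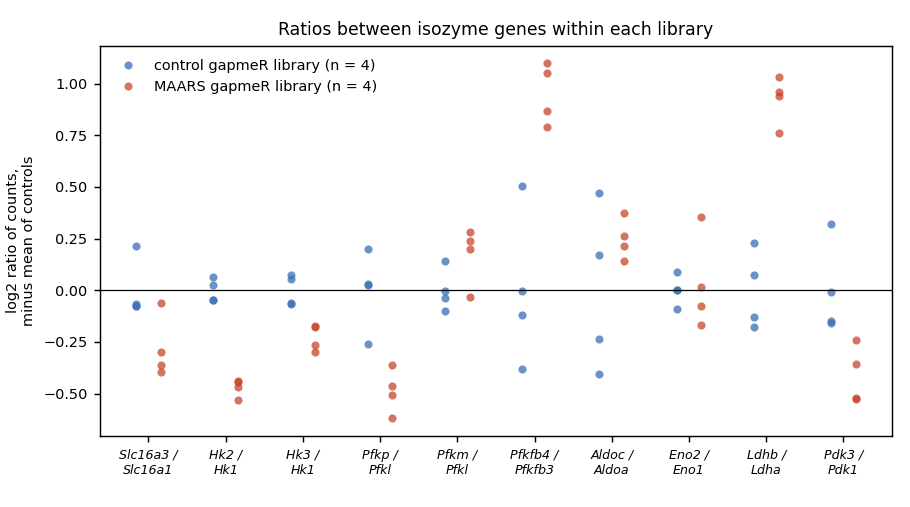
Log2 ratio of counts between isozyme genes in each library, minus the mean of the 4 control libraries (y axis), for 10 pairs (x axis), with 4 control (blue) and 4 MAARS gapmeR (red) libraries each. The 6 pairs whose groups do not overlap are Hk2/Hk1, Hk3/Hk1, Pfkp/Pfkl, Pfkfb4/Pfkfb3, Ldhb/Ldha and Pdk3/Pdk1.

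Per kilobase of merged exons, Pfkp led the phosphofructokinase transcripts in controls with 42.4% ± 3.45. Pfkl was at 35.1% ± 1.88 and Pfkm at 22.5% ± 1.98. This order depends on the lengths used, 13401 bases for Pfkp and 6675 for Pfkl, beside longest transcripts of 8681 and 3730. After knockdown Pfkl led with 38.7% ± 1.86, ahead of Pfkp with 33.3% ± 1.22 and Pfkm with 28.0% ± 1.56. Pfkfb3 supplied 71.4% ± 5.34 of the transcripts of Pfkfb3 and Pfkfb4 together in controls and 56.6% ± 2.48 after knockdown. Pdk1 went from 46.5% ± 3.83 to 53.6% ± 2.38 of Pdk1 and Pdk3 together (SD, n = 4). Pfkfb1, Pfkfb2, Pdk2 and Pdk4, outside the set, were not counted in these shares. In controls Pdk2 was at 4.75 ± 0.347 CPM per kb, beside 5.62 ± 0.658 for Pdk1 and 6.48 ± 0.652 for Pdk3. The aldolase and enolase families stayed with their main form, Aldoa at 97.9% and 97.6% and Eno1 at 97.7% in both groups.

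Several members have near-identical copies elsewhere in the genome or exons shared with another gene, and how reads that match several genes were counted is not given in the sources used here. Of the 35 genes 12 shared over 5% of their 100-base windows or exons with another gene, among them 5 of the 16 called. The largest shares of windows were 67.0% for Pgk1, 59.0% for Eno1 and 39.7% for Pgam1, and Gapdh shared 18.2% with 74 other genes. The values of these genes are uncertain to that extent. The copies that share windows with Pgk1, Pgam1 and Eno1 held 0.0587%, 0.245% and 0.155% as many counts as the member itself, and those of Gapdh 6.56%. For the called members G6pdx and Rpia the genes sharing windows held more, 36.7% and 447% as many counts, although the windows shared were 1.53% and 0.987% of the member's own. Ldhb shared 8.80% of its windows. For the rest the larger value was the overlap of exons with another gene. It was on the same strand for Pgls (20.6%), Pkm (15.3%) and Pfkm (10.2%). Exons overlapped on the opposite strand for Pdha1 (16.1%), G6pdx (13.6%), Gpi1 (11.5%) and Pfkp (5.58%). Pdha1 and Pkm also shared 12.0% and 9.82% of windows, and Pgls, Pfkm and Pfkp shared 0%. Without these 12 genes, 4 members were higher and 7 lower of 23, beside 21.3% higher and 24.0% lower of all genes tested.

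The surrounding pathway lists, chosen by function, also moved both ways. Of 131 listed genes 103 were tested, of which 30 were higher and 24 lower (52.4% called, beside 45.4% of all genes), with a median log2 fold change of 0.00. Among other glycolysis isozymes and partners 4 of 18 were higher and 6 lower. Galm, the aldose mutarotase, rose most clearly (0.41, SE 0.061; edgeR adjusted p = 2.7e-04), and Gfpt1, the entry enzyme of the hexosamine pathway, fell (-0.68, SE 0.060; adjusted p = 8.7e-06). Among other glucose and monocarboxylate transporters 3 of 15 were higher and 2 lower. The glucose transporter Slc2a3 (GLUT3) rose from 5.90 to 9.63 CPM in controls to 15.4 to 19.0 CPM (1.11, SE 0.13; adjusted p = 5.5e-05), and Slc2a6 fell from 28.2 to 38.1 to 10.5 to 13.1 CPM (-1.53, SE 0.12; adjusted p = 5.3e-06). Both changes were larger on the log2 scale than that of any of the 35 members.

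Of the other pyruvate genes 4 of 10 were higher and 1 lower, led by mitochondrial Pck2 (0.77, SE 0.097; edgeR adjusted p = 9.0e-05) and by Pdhx, a structural part of pyruvate dehydrogenase (-0.32, SE 0.055; adjusted p = 6.7e-04). Of the other pentose phosphate genes 3 of 9 were higher and 3 lower. H6pd, the dehydrogenase of the endoplasmic reticulum, rose (0.54, SE 0.064; adjusted p = 6.2e-05) and the epimerase Rpe fell (-0.40, SE 0.054; adjusted p = 1.4e-04). The tricarboxylic acid cycle had 6 of 19 higher and 4 lower, with Idh2 up (0.57, SE 0.070; adjusted p = 7.1e-05) and Idh3b down (-0.24, SE 0.051; adjusted p = 0.0029).

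Regulators of the pathway had 6 of 17 higher and 5 lower. Txnip, which limits glucose uptake, rose from 510.0 ± 68.2 to 775.6 ± 80.6 CPM (0.60, SE 0.095; edgeR adjusted p = 4.0e-04), and Mlx, the partner of the glucose-sensing factors, fell (-0.56, SE 0.054; adjusted p = 1.5e-05). Hif1a, the HIF-1 subunit gene, named after its values had been seen, fell from 163.0 to 188.0 CPM in controls to 140.6 to 149.4 CPM (-0.28; edgeR adjusted p = 0.0010). Of the hypoxia genes outside glycolysis 4 of 15 were higher and 3 lower, with Vegfa up (0.59, SE 0.093; adjusted p = 4.0e-04) and Higd1a down (-0.41, SE 0.072; adjusted p = 7.6e-04).

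**Figure D5:**
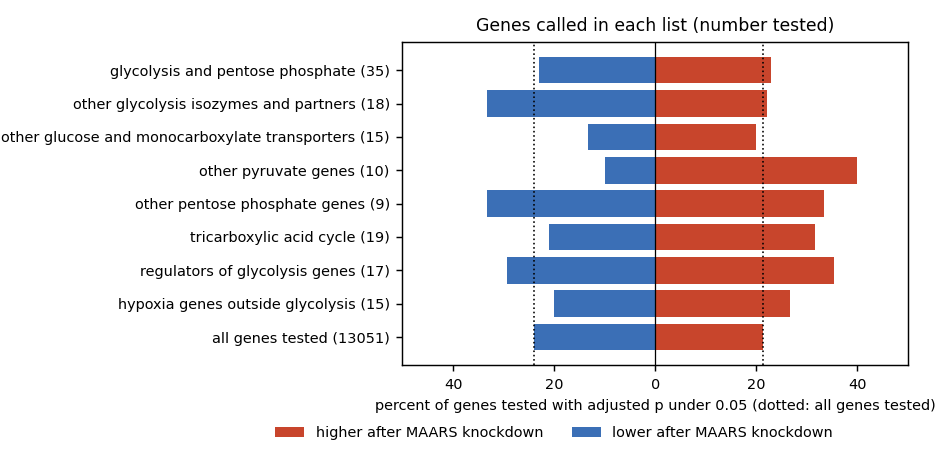
Percent of the genes tested in each list that were higher (red, right) or lower (blue, left) at an adjusted p under 0.05 (x axis), with the number tested beside each list name and dotted lines at the shares of all genes tested, 21.3% and 24.0%. The 35 glycolysis and pentose phosphate genes sit close to both lines at 22.9% each way.

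All 35 members had a RefSeq promoter window, and 14 of them (40.0%) held ACGTG in the 250 bases before a start, beside 25.0% of the tested genes with a window and 16.6% of all 32851 windows. Of the 8 members that fell 6 held it (Slc16a3, Hk2, Hk3, Pfkfb3, Pkm and Ldha), of the 8 that rose 1 did (Pfkm), and of the 19 without a call 7 did. Across all tested genes with a window, 24.3% of those higher, 24.6% of those lower and 25.5% of those without a call held it. The longer CACGTG, which contains ACGTG, was in 4 members, Ldha, Pfkfb3, Pfkm and Slc16a1, which is 11.4% of them beside 10.0% of tested genes. TGACNNNGC, the core of an antioxidant response element, was in 4, G6pdx, Slc16a1, Hk1 and Aldoa, beside 14.1% of tested genes. These letter matches on either strand describe the windows and are not sites of binding.

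Gapdh is also one of the genes that qPCR is scaled to, so other usual reference genes were measured beside it. Of 10 such genes 4 were higher and 2 lower, beside 21.3% and 24.0% of all genes tested. Gusb was up (0.41, SE 0.090; edgeR adjusted p = 0.0033) and B2m down (-0.98, SE 0.097; adjusted p = 1.8e-05). Actb had a log2 fold change of 0.10 (edgeR adjusted p = 0.16) and Hprt of 0.16 (adjusted p = 0.032). Sdha, at 0.01, was nearer to 0 than Gapdh at -0.04. With upper-quartile factors or library totals the median of all genes moved to 0.07, and Gapdh was at 0.02 with either.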

How the data were processed

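The authors trimmed the reads (Trimmomatic 0.36), ran STAR 2.5.2b against the mm10 mouse genome and Ensembl transcripts, and obtained gene counts from featureCounts (Subread 1.5.2). Tool versions are those of the submitters' processing notes. The libraries were ribodepleted and read as pairs of 100 nt. The deposited table gives unnormalized counts of 49315 genes in 8 libraries, and the strand setting is not given in the sources used here. All per-sample columns were used.

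Counts were analysed with R 4.3.3 and edgeR 4.0.16 (filterByExpr with a minimum count of 10 and a total of 15, TMM factors, glmQLFit and glmQLFTest), Benjamini-Hochberg adjustment over 13051 genes and 95% intervals from the quasi-likelihood degrees of freedom. TMM factors lay between 0.955 and 1.03. Chi-square statistics between replicates were 4.24 to 15.1 per gene, so replicates differed by more than sampling noise. Lengths, positions and copies came from GENCODE M21 (99.5% of the genes found), and promoter windows from RefSeq on GRCm38.p6. Isozyme ratios were compared by exact permutation tests.

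In simulated libraries (13051 genes, 200 of them changed) edgeR recovered 84% of genes changed by 1 and 56% of those changed by 0.5 on the log2 scale. Unchanged genes made up 4.76% of its calls. The simulated counts used edgeR's own dispersions, and 45.4% of genes were called in the data, so these rates need not hold for it. Alternatives were RLE or upper-quartile factors, library totals, DESeq2 1.42.0, limma-voom (3.58.1), a robust prior, other filters, 1 surrogate variable (sva 3.50.0), loess offsets for length and GC content, thinned counts, other thresholds, a pseudocount of 5 for ratios, each library left out in turn and, chosen after seeing the data, leaving out members that share sequence.

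Members and lists were chosen with earlier results of these data known. Values in every library were given for members past 0.05 with a log2 change of at least 0.5 and for Slc2a1, Hk2, Pfkfb3, Gapdh, Pkm, Ldha, G6pdx and Tkt. From every other list the gene with the smallest p in each direction was named, from the pathway lists and reference genes in the report. In the marker lists these were Cd14 (0.74 on the log2 scale) and Fcgr1 (-2.09), Epor (1.14) and Acta2 (0.92). Protein sequences and the gapmeR sequences were not used here.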

Additional observations from a re-analysis of the deposited data

Results flagged for a closer look

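In 12 of 142 groups of 4 libraries, each a gene or isozyme ratio in one condition, 1 library stood farther from the others than Dixon's 95% limit for 4 values. Chance flags about 1 in 20 groups. Among the members, MAARS gapmeR replicate 11 was low for Pfkfb4 (35.3 CPM, the next library at 40.8) and high for Pgam1 (207.7 against 190.8), and without it Pfkfb4 passed the test (edgeR adjusted p = 0.033). MAARS gapmeR replicate 15 was high for Eno2 (12.2 against 9.18 CPM) and low for G6pdx (211.5 against 221.7). Control replicate 5 was high for G6pdx (199.3 against 183.6). MAARS gapmeR replicate 9 was low for Pdhb (70.1 against 73.3) and replicate 13 was low for Pgd (359.2 against 365.2). G6pdx and Pgd stayed called without any 1 library, with log2 fold changes of 0.21 to 0.25 and 0.20 to 0.26.

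Outside the members, MAARS gapmeR replicate 13 was low for Pck2 (85.1 CPM) and Gusb (917.6 CPM). H6pd was low in control replicate 2 (51.1 CPM) and high in MAARS gapmeR replicate 9 (91.3 CPM). The log2 ratio of Slc16a3 to Slc16a1 was 0.86 in control replicate 5, the next control being at 0.58. The cause of these values was not tested.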

How the results depend on the processing

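No paired analysis was possible because the groups share no replicate number. Across 19 alternatives, 13 of the 16 called members were called in each, and none of the 16 turned direction. Pkm was lost in 7, Taldo1 in 4 and Rpia in 2, and 5 uncalled members passed in at least 1 (Hk1 with loess offsets, -0.20, adjusted p = 0.0079; Pfkp; Pfkfb4; Aldoa; Pgls with upper-quartile factors or library totals, 0.16). With upper-quartile factors or library totals, 10 members were higher and 6 lower, and 60.4% or 60.9% of all calls were higher in place of 47.0%. With counts thinned to the smallest library, 8 were higher and 8 lower.

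A log2 change of at least 0.5 left 0 members higher and 3 lower, 12 other pathway genes higher and 5 lower, and 1169 and 1020 of all genes. At an adjusted p under 0.01, 1740 of all genes were higher. Without members sharing sequence, a setting chosen after seeing the data, 4 members were higher. Actb passed at 0.16 with upper-quartile factors or library totals and Tbp at -0.23 with loess offsets. Hprt did not pass at 0.15 without a filter, nor without control replicate 6 or 7 or MAARS gapmeR replicate 11 or 13 (range 0.12 to 0.19 over all libraries left out). Slc16a3/Slc16a1 passed at -0.26 with thinned counts (exact permutation adjusted p = 0.041).

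Changes of sign occurred in uncalled genes near 0. With upper-quartile factors and library totals, values were 0.021 and 0.022 for Slc2a1, 0.022 and 0.023 for Gapdh, 0.042 and 0.042 for Pgk1, 0.022 and 0.023 for Pdha1, and 0.024 and 0.026 for Dld. With loess offsets they were 0.052 for Pgk1, -0.068 for Eno1, 0.028 for Pdha1, 0.075 for Dld and -0.083 for Tkt. Without a filter Pdk3 was at -0.0044 and Tkt at -0.0029, and with 1 surrogate variable at -0.0029 and -0.0045. With each library left out, values ranged from -0.067 to 0.28 for Aldoc, -0.080 to 0.017 for Gapdh, -0.056 to 0.046 for Pgk1, -0.014 to 0.089 for Pgam1, -0.0091 to 0.085 for Eno1, -0.043 to 0.13 for Eno2, -0.054 to 0.060 for Pdk3, -0.029 to 0.032 for Tkt and -0.011 to 0.024 for Sdha. The cause was not tested.

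With 1 library left out, the 6 isozyme calls were lost in 5 of 8 fits, where fewer than 6 pairs reached the smallest p. With all 8 libraries too, at least 6 pairs must reach it, so each call depends on the other pairs. In the 5 fits Pfkp/Pfkl, Pfkfb4/Pfkfb3 or Pdk3/Pdk1 went to an exact permutation p of 0.057. The differences ranged from -0.49 to -0.45 for Hk2/Hk1, -0.25 to -0.20 for Hk3/Hk1, -0.57 to -0.42 for Pfkp/Pfkl, 0.82 to 1.12 for Pfkfb4/Pfkfb3, 0.87 to 1.00 for Ldhb/Ldha and -0.47 to -0.31 for Pdk3/Pdk1. Rpia, Eno2, Ldhb, Pfkm and Pdk3 were below 20 CPM in every library, and how depth bears on their calls was not tested beyond the thinned counts.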
